A study of Rattus norvegicus with 8 samples.

Results

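On the Agilent Whole Rat Genome array, many probes carry a gene name that ends in the tag "predicted", which marks a gene model that had been proposed by computer from the rat genome when the array was designed. Of 7430 such predicted names, 79 were raised in thymocytes treated with dexamethasone (Dex), or 1.06%, out of 35581 gene names on the array in all. The 79 genes were chosen on the deposited log2 signals by 3 conditions. The mean of the Dex arrays had to exceed the mean of the Control arrays by at least 1.0, every Dex array had to exceed every Control array, and the probe had to be flagged as well above background on all 4 Dex arrays. Where a name had several probes, the brightest over all arrays stood for it. The difference between Dex and Control therefore chose the genes, and it is given below as a description, without a test.

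The cells were primary thymocytes, the immature lymphocytes of the thymus, from adrenalectomized male Sprague-Dawley rats, an operation that Control and Dex cells share and that removes the animals' own glucocorticoid source. The thymi of 3 rats were pooled for each preparation, and culture lasted 6 h, with 100 nM dexamethasone in the Dex group (4 arrays) and no hormone in the Control group (4 arrays). The study states 3 biological replicates, while 4 arrays per group were analysed here, and where arrays share a preparation the spread between them may be technical. Between 24908 and 34472 of 41012 probes per array were well above background, with the lowest numbers on Dex 1 and Dex 2, and no spot was saturated. All 16 double positive thymocyte markers measured, among them Cd4, Cd8a, Rag1 and Ptcra, were above background on every Dex array. The log2 of their summed signal, in which the brightest markers weigh most, was 18.55 to 18.89 in Control and 18.41 to 18.78 in Dex. Of the 16 markers 3 differed by more than 0, and the median difference was -0.17. Cd5 differed by -0.70, Ptcra by -0.61, Rag1 by -0.59 and Cd4 by 0.14. In a mixed cell preparation, fewer cells of a type and less RNA per cell cannot be told apart.

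Dexamethasone is a synthetic glucocorticoid that binds the glucocorticoid receptor, a transcription factor held in the cytoplasm until hormone reaches it. The hormone-bound receptor moves to the nucleus, binds DNA at glucocorticoid response elements or through other factors, and raises or lowers transcription of nearby genes. In thymocytes this program ends in apoptosis, and it is preceded by changes in signalling, metabolism and stress genes.

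Most of the gene models have since been given a firmer identity. Of the 79 genes, 70 matched the current RefSeq gene table, and 66 of those now have a curated mRNA. On the array 45 of them already had a gene name and 34 a number, of which 26 now have a gene symbol. Current symbols are used below for the number-named genes. Positions of probes are those of the scanner output, which uses build rn3 of the rat genome, and no annotation of that build was used here to place them in exons.

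The 60-base probes define what was measured, and those shown here were picked because they read well-known proteins or because near-identical copies affect how a value can be read. The probes of RGD1565073 and RGD1562378, both histone H4 gene models, are placed at the same position, chr4:174097712-174097771. They share 58 of 60 bases and differ by the substitutions C4T and T22C, counted from the 5′ end with the RGD1565073 base first and capitals at both positions, so the levels of these models cannot be taken as independent.
RGD1565073: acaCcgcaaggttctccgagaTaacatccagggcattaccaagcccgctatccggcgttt
RGD1562378: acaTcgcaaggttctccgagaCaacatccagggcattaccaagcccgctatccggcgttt

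Other probes stand for genes to which the values below return, written without capitals. They read the H4 gene Hist1h4m (chr17:50335464-50335523), the H2B gene Hist1h2bn (chr17:50389859-50389918), the kinesin Kif5c (chr3:30621228-30621287), the cytokine receptor Il7r (chr2:59037161-59037220) and the transcriptional repressor Bach2 (chr5:48876519-48876578). The probe of the lipase Pnpla2 is assigned to chr1:201798534-201798693, a stretch longer than the probe itself.
Hist1h4m: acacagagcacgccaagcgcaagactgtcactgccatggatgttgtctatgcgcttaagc
Hist1h2bn: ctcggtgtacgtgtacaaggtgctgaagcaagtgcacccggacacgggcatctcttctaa
Kif5c: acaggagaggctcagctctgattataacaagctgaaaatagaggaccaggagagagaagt
Il7r: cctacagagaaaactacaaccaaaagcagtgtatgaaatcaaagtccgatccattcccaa
Bach2: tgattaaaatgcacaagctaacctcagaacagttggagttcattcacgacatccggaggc
Pnpla2: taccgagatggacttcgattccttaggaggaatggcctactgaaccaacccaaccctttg

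Of the 79 genes, 4 had probes that shared at least 20 bases in a row with a probe of another name. Beside the H4 pair these were Hist1h2bm, whose probe matched Hist1h2bh at 52 of 57 aligned bases and another probe of Hist1h2bn at 48 of 48, and RGD1561520, which matched the ferritin light chain gene Ftl1 at 35 and 32 of 38 bases. The values of these genes are uncertain to that extent. The median GC content of the probes was 45% for the 79 genes and 45% for all predicted names.

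The raised genes covered a wide range of signal. The signal of a probe depends on its sequence as well as on the RNA, so levels are compared here only between arrays. Their mean log2 signal in Control ran from 2.17 for Insm1 to 15.46 for Plac8, with a median of 7.18. The differences ran from 1.00 to 4.89 with a median of 1.49, and 20 genes differed by 2 or more. In Control 69 of the genes were above background on all 4 arrays and the other 10 on 1 to 3 arrays, so that none was measured in Dex alone. The separation of the groups, taken as the lowest Dex array minus the highest Control array, was at least 1 for 27 genes and under 0.1 for 5, with a median of 0.72.

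**Figure D1:**
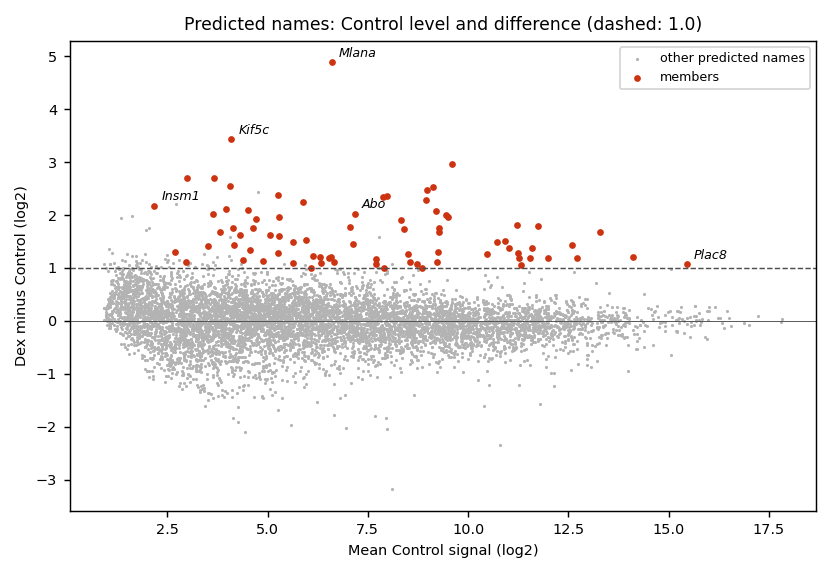
Mean Dex minus mean Control (y axis, log2) against mean Control signal (x axis, log2) for all predicted names, with the 79 raised genes as red points and the minimum difference of 1.0 dashed. The raised genes lie between 1.00 and 4.89 on the y axis and are spread over Control levels from 2.17 to 15.46.

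Just inside the minimum difference lay Clec2g with 1.01, Hapln4 with 1.01 and Chst2 with 1.00. Just outside it lay Lrrc10b with 0.999, Znf618 with 0.996 and Ado with 0.989. A further 12 predicted names met the difference and the background condition while their groups overlapped, and 10 met the difference and the separation while they were not above background on every Dex array.

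Predicted names were raised at about the same rate as other names. Of 28151 names without the tag, 284 met the same 3 conditions, or 1.01%. Among names above background on all Dex arrays the shares were 1.78% of 4447 predicted names and 1.76% of 16108 others. The mirrored conditions, lower in Dex by at least 1.0 and above background on all Control arrays, were met by 21 predicted names (0.283%) and by 162 others (0.575%). limma called 229 of all 41012 probes higher in Dex at an adjusted p of 0.05, or 0.558%, and 87 lower. Of the 9148 predicted-name probes it called 49 higher, or 0.536%, and 13 lower, a split that became 97 higher and 79 lower with normexp background correction, and the count of higher probes became 17 with the replicate block. With the slide as a fixed block, limma called 0 of these probes higher, and 192 were higher and 170 lower at an unadjusted p under 0.05. Of the 79 genes limma called 37 higher, a count from which nothing can be read, since the genes were chosen on the same contrast, and 15 when replicate numbers were fitted as a block. The 37 had a median difference of 1.75 and a median Dex SD of 0.253, while the 42 not called had 1.29 and 0.522.

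Sequences of promoters could be read for 60 of the 79 genes from the RefSeq table (build GRCr8, 250 bases before to 50 after the start). The palindromic glucocorticoid response element (its full consensus with a 3-base spacer, searched on both strands) was in 0 of the 60 and in 0.00728% of all 27457 promoters. Its shorter core ACANNNTGT was in 1, or 1.67%, against 6.60% of all promoters, and TATAAA on the strand of the gene was also in 1, against 9.08%. These letters were searched only in this window, and elements that lie farther away were not looked at. The core match lay in the promoter of Ctla2a, a gene named for cytotoxic T lymphocytes whose product inhibits cysteine proteases, 225 bases before the start at chr17:3809206-3809455 (GRCr8, plus strand), with the match in capitals.
Ctla2a: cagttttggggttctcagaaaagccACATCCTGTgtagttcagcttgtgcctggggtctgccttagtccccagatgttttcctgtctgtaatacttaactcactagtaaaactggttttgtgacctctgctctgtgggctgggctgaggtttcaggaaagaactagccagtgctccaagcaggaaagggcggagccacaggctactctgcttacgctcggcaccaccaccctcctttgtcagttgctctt

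Ctla2a itself had a log2 signal of 10.46 to 10.89 in Control and 12.03 to 12.35 in Dex, a difference of 1.48.

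Values in every array are given next for the 25 genes with the largest differences among those that carried a gene name on the array, by role, together with the other raised genes of the same role. Signals are log2 values after quantile normalization, listed in the order of arrays 1 to 4, and a difference is mean Dex minus mean Control with its standard error (SE, n = 4 per group). The absence of overlap between Dex and Control follows from how the genes were chosen.

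The size of a difference depended on the background correction for dim genes. With normexp correction of the scanner intensities all 79 differences were still above 0, but for 36 genes the deposited difference was larger than the normexp one by a factor of over 1.5. These 36 had a median Control signal of 4.68, against 9.26 for the others. Among the 25 genes it was so for 10. With normexp Kif5c differed by 1.46, Kctd12 by 1.40, Rab11fip4 by 0.98, Il7r by 0.76, Vangl2 by 0.74 and Mrc1 by 0.69. For the matrix genes the normexp difference was 0.54 for Olfml2a, 0.52 for P4ha2 and 0.43 for Col7a1, and for Insm1 it was 0.28. Of the genes outside the 25, Cep112 differed by 1.13 with normexp, Spata22 by 0.95, Uaca by 0.83, Bach2 by 0.83, Cdhr2 by 0.80, Tekt5l1 by 0.75, Abhd15 by 0.72 and Gsta3l1 by 0.64, and the rest of the 36 by 0.16 to 0.76.

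**Figure D2:**
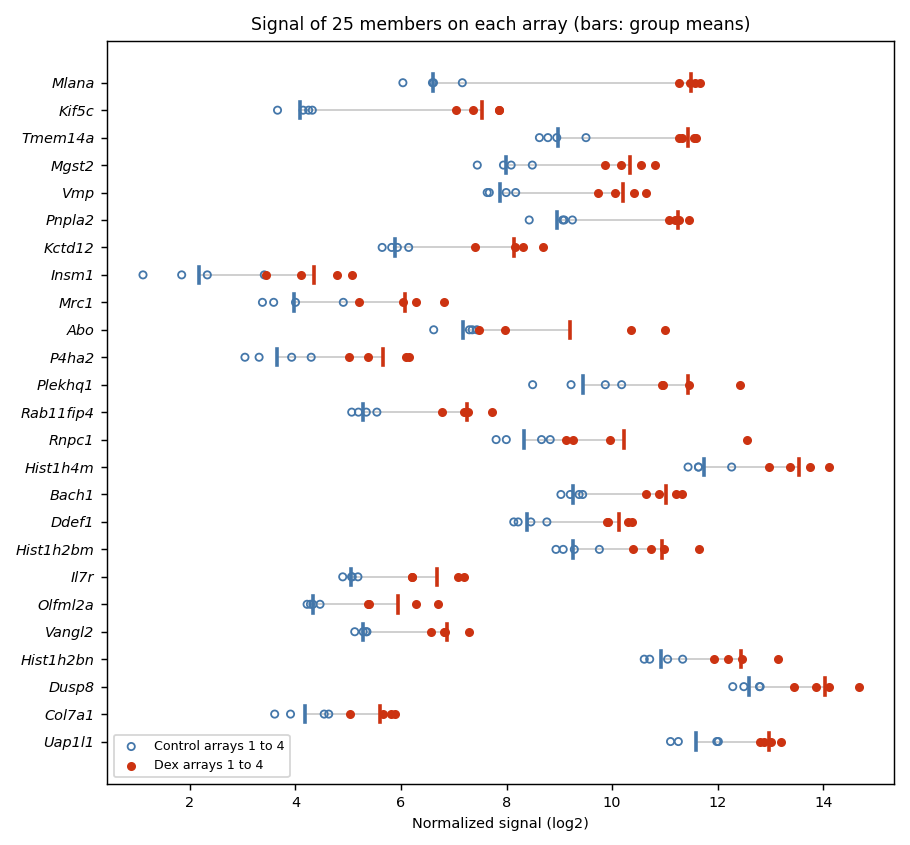
Normalized log2 signal (x axis) of the 25 genes on each array, with Control arrays as open blue circles, Dex arrays as filled red circles and vertical bars for the group means. The difference falls from 4.89 for Mlana at the top to 1.38 for Uap1l1 at the bottom, and for Abo and Rnpc1 the Dex arrays are spread over more than the distance between the group means.

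The largest difference belonged to Mlana, which encodes melan-A, a protein of the pigment organelles of melanocytes. Its signal was 6.62, 6.04, 6.60 and 7.16 in Control and 11.57, 11.47, 11.27 and 11.67 in Dex. The Dex arrays had an SD of 0.17, against 0.46 in Control, and all lay more than 4 log2 units above any Control array. The difference was 4.89 (SE 0.25), or 29.7-fold.

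Roles were assigned with the results known and were not tested. Membrane traffic and motors were the role of 11 genes, with differences of 1.18 to 3.44 and a median of 1.37. limma called 8 of them, or 4 with the replicate block, beside 49 and 17 of all 9148 predicted-name probes. Nothing is read from these counts, since the genes were chosen on the same contrast. The leading gene was Kif5c, a kinesin heavy chain that carries cargo along microtubules. Its signal was 3.66, 4.32, 4.15 and 4.25 in Control, where 3 arrays were above background, and 7.85, 7.87, 7.37 and 7.04 in Dex. The difference was 3.44 (SE 0.25), or 10.8-fold, and Dex 3 and Dex 4 were the lower Dex arrays. Rab11fip4, an effector of Rab11 on recycling endosomes, had 5.19, 5.54, 5.07 and 5.34 in Control against 7.28, 7.72, 6.77 and 7.20 in Dex. Both groups were tight for this gene, and it differed by 1.96 (SE 0.23). Ddef1, now Asap1, activates the GTPase of Arf proteins and remodels the actin edge of the cell. It read 8.22, 8.14, 8.46 and 8.76 in Control and 10.38, 10.30, 9.90 and 9.92 in Dex, a difference of 1.73 (SE 0.21). Sytl3, a synaptotagmin-like Rab27 effector in vesicle release, showed a larger difference than either, 2.53, with 8.90 to 9.43 in Control and 11.52 to 11.83 in Dex. Ccdc115, needed to assemble the proton pump of acidic organelles, was read by 3 probes that differed by 1.82, 1.79 and 1.82. Smaller differences were measured for Dopey2, now Dop1b, with 1.37, for Ehbp1, which links endosomes to actin, with 1.33, for Arf4l, now Arl4d, with 1.29, for Exoc6b, an exocyst subunit, with 1.23, for Tom1l2 with 1.18 and for the Rab exchange factor Dennd4c with 1.18. Over all names on the array, the class of small GTPases and their regulators held 294 genes with a median difference of -0.00. limma called 4 of these higher and 0 lower at the same threshold. That class takes in only Rab11fip4, Ddef1, Arf4l and Dennd4c of the 11 genes.

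The surface receptors and adhesion genes numbered 8, with differences of 1.01 to 2.12 and a median of 1.41, and limma called 3, or 1 with the replicate block. The class of receptors, ligands and adhesion genes held 1800 names on the array, of which limma called 7 higher and 5 lower, with a median difference of 0.06. Il7r encodes the IL7 receptor alpha chain, which carries survival signals to early and late thymocytes and is low in most double positive cells. It had 5.08, 4.90, 5.06 and 5.18 in Control and 7.20, 7.08, 6.21 and 6.21 in Dex. Dex 1 and Dex 2 were about 0.9 above the other two, and the difference was 1.62 (SE 0.27). Vangl2, a core protein of planar cell polarity, had 5.35, 5.34, 5.28 and 5.12 against 6.82, 7.28, 6.57 and 6.84. These Dex arrays were closer together, and the difference was 1.60 (SE 0.18). Mrc1, the mannose receptor of macrophages, had 4.00, 3.37, 4.91 and 3.59 in Control and 6.81, 6.28, 6.05 and 5.20 in Dex. Its highest Control and lowest Dex array were only 0.29 apart, and the difference was 2.12 (SE 0.43), or 1.40 by a second probe. Among the others were the protocadherin Cdhr2 with 1.93 (1.19 and 0.99 by its other probes), the acid-sensing receptor Gpr65 with 1.21, the myeloid receptor Trem1 with 1.14, the scavenger receptor Scarf1 with 1.09 (0.56 by its other probe, with overlapping groups) and the lectin Clec2g with 1.01. For all 8 genes the mean of Dex 1 and 2 exceeded the mean of Dex 3 and 4, by a median of 0.81.

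Because Mrc1 and Trem1 mark myeloid cells, the macrophage markers are given beside them. limma called 0 of the 9 measured markers, Mrc1 included, and 2 had an unadjusted p under 0.05, both higher in Dex. The log2 of the summed signal of the 9 markers was 12.10 to 12.58 in Control and 12.02 to 13.06 in Dex. C1qb differed by 0.84, C1qa by 0.72, Lyz by 0.21 and Csf1r by 0.12, while Cd68 differed by -0.12, Emr1 by -0.15, Cd163 by -0.24 and Cd14 by -0.77. All were above background on every array, except Cd163 on 2 of the Dex arrays. The part of macrophage RNA in the Mrc1 value was not tested.

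The transcription factors numbered 4. Bach1 and Bach2 are related basic leucine zipper repressors, of which Bach1 controls heme and oxidative stress genes and Bach2 holds back effector genes in lymphocytes. Bach1 read 9.21, 9.44, 9.03 and 9.37 in Control and 10.90, 11.22, 10.64 and 11.32 in Dex, a difference of 1.75 (SE 0.20), while a second probe differed by 0.93. Bach2 had 5.89 to 6.01 in Control and 7.30 to 7.70 in Dex, a difference of 1.52. Insm1, a zinc finger factor of endocrine and neural cells, lay near background. It had 1.11, 1.84, 2.33 and 3.41 in Control, with 1 array above background, and 4.79, 5.06, 3.45 and 4.11 in Dex. Control 4 and Dex 3 all but touched, and the difference was 2.18 (SE 0.53). Hes7, a repressor with a part in the segmentation clock of the embryo, had 11.57 to 12.13 in Control and 12.74 to 13.51 in Dex, with a difference of 1.19. The class of transcription factors held 527 names on the array, with a median difference of 0.04, of which limma called 6 higher and 1 lower.

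The lipid enzymes numbered 4, with differences of 1.17 to 2.29. Pnpla2, the adipose triglyceride lipase that cuts the initial fatty acid from stored fat, had 8.43, 9.25, 9.09 and 9.06 in Control and 11.08, 11.19, 11.46 and 11.26 in Dex. Dex 3 was its highest array, and the difference was 2.29 (SE 0.21), or 4.89-fold. Mboat1, an acyltransferase that remodels phospholipids, differed by 1.78, the hydrolase-like Abhd15 by 1.75 and the phosphatidylinositol transfer protein Pitpnm2 by 1.17 (1.81 by its other probe). The lipid metabolism class held 204 names on the array, with a median difference of 0.00, and limma called 2 higher and 1 lower.

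Glutathione enzymes numbered 2. Mgst2, a membrane-bound glutathione transferase that can also make a leukotriene, had 8.49, 8.09, 7.44 and 7.94 in Control and 10.82, 10.54, 9.86 and 10.17 in Dex, and differed by 2.36 (SE 0.29). Gsta3l1, an alpha-class glutathione transferase model, was above background on 1 Control array, with 2.49 to 3.90 in Control and 5.10 to 6.39 in Dex, and differed by 2.69, or by 0.64 with normexp background correction. Tmem14a, a small membrane protein of mitochondria and endoplasmic reticulum, lies 23.0 kb from Gsta3l1 by the probe positions. It had 9.50, 8.78, 8.62 and 8.95 in Control and 11.59, 11.56, 11.32 and 11.26 in Dex. The Dex arrays were close together, and the difference was 2.47 (SE 0.22).

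Enzymes of the endoplasmic reticulum and of sugar chains numbered 5, with differences of 1.00 to 2.03, and none was among the 37 called by limma. Abo, the glycosyltransferase of the ABO blood groups, had 7.35, 6.62, 7.30 and 7.44 in Control and 11.01, 10.36, 7.48 and 7.97 in Dex. Dex 1 and 2 averaged 10.68, while Dex 3 and 4 averaged 7.73, only 0.55 above Control. Its difference of 2.03 had the largest SE of the 25 genes, 0.77. Uap1l1, related to an enzyme that makes the sugar nucleotide UDP-N-acetylglucosamine, had 11.25, 11.11, 12.01 and 11.98 against 13.00, 13.20, 12.87 and 12.80, a difference of 1.38 (SE 0.25). Here the Control arrays were split, with Control 1 and 2 lower than Control 3 and 4. Edem1, which hands misfolded glycoproteins over for degradation, was read by 3 probes that differed by 1.67, 1.50 and 1.85, and its brightest probe reached 15.73 on Dex 3, the highest of its arrays. limma called it only with the replicate block. Ern1, the stress sensor IRE1 of the same organelle, differed by 1.07, and the sulfotransferase Chst2 by 1.00.

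Extracellular matrix genes numbered 4. P4ha2, a prolyl hydroxylase of collagen, had 3.31, 3.04, 3.93 and 4.30 in Control, with 3 arrays above background, and 6.09, 6.15, 5.01 and 5.37 in Dex, a difference of 2.01 (SE 0.37). Olfml2a, an olfactomedin-like secreted protein, had 4.47, 4.33, 4.22 and 4.28 against 6.28, 6.71, 5.37 and 5.40, a difference of 1.61 (SE 0.31). In both genes Dex 1 and 2 were the higher Dex arrays. Col7a1, the collagen of anchoring fibrils, had 3.61, 3.91, 4.54 and 4.63 in Control, again with 3 arrays above background, and 5.82, 5.66, 5.04 and 5.88 in Dex, a difference of 1.43 (SE 0.30). The hyaluronan link protein Hapln4 differed by 1.01. Of the 10 stromal and epithelial markers measured, limma called 0, and 2 had an unadjusted p under 0.05, both higher in Dex. The log2 of the summed signal of the 10 markers was 10.30 to 11.21 in Control and 9.66 to 11.15 in Dex, and Dcn was above background on no array. Of the 10 markers 7 differed by more than 0, and the median was 0.55. Pdgfrb, above background on 2 Control and 3 Dex arrays, differed by 1.72, Fabp4 by 0.72, Col3a1 by 0.68, Col1a1 by 0.57, Cdh5 by 0.53 and Tacstd1 by 0.39, while Col1a2 differed by -0.76, Kdr by -0.68 and Adipoq by -0.58. The part of stromal RNA in these values was not tested.

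Signalling and stress genes numbered 8, with differences of 1.10 to 2.00 and a median of 1.27. Plekhq1, now Plekho2, a pleckstrin homology protein, had 9.22, 8.49, 9.87 and 10.18 in Control and 11.45, 12.42, 10.95 and 10.96 in Dex. Both groups were wide, and the difference was 2.00 (SE 0.46). Rnpc1, now Rbm38, an RNA-binding protein under p53 control, had 7.80, 7.99, 8.66 and 8.83 in Control and 9.12, 9.26, 9.96 and 12.55 in Dex. Its value rested in large part on Dex 4, since the difference of 1.90 (SE 0.73) came to 1.13 without that array. Dusp8, a phosphatase of stress-activated MAP kinases, had 12.79, 12.29, 12.50 and 12.80 in Control and 14.11, 14.67, 13.45 and 13.87 in Dex, and differed by 1.43 (SE 0.27). Sesn1, a sestrin that restrains mTOR under stress, had very even arrays, 11.20 to 11.28 in Control and 12.47 to 12.60 in Dex, and differed by 1.28. The remaining genes were the phosphatase subunit Ppp1r18 with 1.27, the kinase Ripk4 with 1.12, the ubiquitin ligase Herc3 with 1.12 and Elmo1, a partner of DOCK proteins in Rac activation, with 1.10. The other probes of Elmo1 differed by 0.23, 0.46 and -0.77, so its probes did not move together.

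Channels, transporters and their accessory subunits numbered 6, with differences of 1.07 to 2.25. Kctd12, an auxiliary subunit of GABA B receptors, had 5.82, 5.93, 5.64 and 6.14 in Control and 8.15, 8.69, 7.40 and 8.30 in Dex, a difference of 2.25 (SE 0.28). Dex 3 was its lowest Dex array and still lay more than 1 above every Control array. Cracr2b, which regulates calcium entry channels, differed by 1.46, the volume-regulated anion channel subunit Lrrc8b by 1.26 (0.80 by its other probe), the magnesium transport protein Cnnm4 by 1.21, the sodium, calcium and potassium exchanger Slc24a4 by 1.14 and the melanocortin receptor accessory protein Mrap2 by 1.07.

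Enzymes of folate and amino acid metabolism numbered 3, none of them among the 37 called by limma. Mthfd1l, the mitochondrial formate-producing enzyme, differed by 1.29, RGD1308564, a model similar to L-amino acid oxidase, by 1.41, and RGD1560523, a model similar to methionine adenosyltransferase, went from a mean of 14.10 to 15.30. Its second probe differed by 2.14. RGD1560523 was highest on Dex 3, at 16.11. The gene Mat2a makes S-adenosylmethionine, and both of its probes differed by 2.25 and were called by limma. The brightest probe of Mat2a lies 2.34 kb from the brightest probe of this model, on the side of the model's second probe (chr4:105985345-105985404). Whether this model and Mat2a are the same gene was not tested.

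Vmp, now Nrsn1, a vesicle membrane protein of neurons, had 7.63, 7.99, 8.17 and 7.67 in Control and 9.73, 10.41, 10.05 and 10.63 in Dex, a difference of 2.34 (SE 0.24), while its other probe differed by -0.32. With Mlana and Tmem14a it belongs to the 18 genes without a shared role, of which limma called 14, or 5 with the replicate block, beside 49 and 17 of all 9148 predicted-name probes. The largest of the rest was Rpl10a-ps1, labelled on the array as similar to ribosomal protein L10a. It had 9.43 to 9.90 in Control and 12.43 to 12.64 in Dex, a difference of 2.96. Its probe is assigned to a stretch longer than the probe itself, 51.5 kb from the glutathione transferase gene Gsta3, which differed by 3.77. Which transcript this probe reads was not tested, so the name and role of Rpl10a-ps1 are uncertain. The gene Rpl10a differed by 0.58, from 13.46 to 14.04, and was not called. Uaca, a nuclear membrane protein linked to apoptosis, differed by 2.70 by its brightest probe and by -1.68, 0.27 and -0.23 by its others. Genes named for the testis or for cilia and centrosomes were among them, Spata22 with 2.55, Cep112 with 2.38, Tekt5l1 with 2.10 and Tex9 with 1.06. Tbata, described on the array as similar to spatial-delta, differed by 1.10. Plac8, a small cysteine-rich protein of myeloid and lymphoid cells, had 15.22 to 15.64 in Control and 16.32 to 16.70 in Dex, a difference of 1.07. RGD1561520, whose probe resembles Ftl1, differed by 1.19, and the Ftl1 probes by 0.97 and 1.09.

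The 6 histone genes were all of types H4 and H2B, which with H2A and H3 form the protein core of the nucleosome and are made mainly in S phase. Hist1h4m had 12.26, 11.64, 11.44 and 11.63 in Control and 13.36, 13.75, 12.97 and 14.10 in Dex, a difference of 1.80 (SE 0.29). Hist1h2bm had 9.76, 8.94, 9.07 and 9.28 against 10.73, 10.98, 10.39 and 11.66, a difference of 1.68 (SE 0.30), while a second probe under that name, now assigned to Hist1h2bd, differed by 0.00. The same order of arrays, with Control 1 highest in Control, Dex 4 highest and Dex 3 lowest in Dex, was seen in all 6 genes. Hist1h2bn, now Hist1h2bo, had 11.34, 10.61, 10.71 and 11.05 in Control and 12.20, 12.46, 11.93 and 13.15 in Dex, and differed by 1.51 (SE 0.29). RGD1565073 differed by 2.07, RGD1562378 by 1.96 and H2bc18 by 1.19.

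The array held 34 histone genes by name or description, and their differences are given by type without a test, since 6 of them were chosen for their difference. All 9 H4 genes differed by at least 1.36, with a median of 1.89 and a maximum of 2.22. The 9 H2B genes had a median of 1.13, and 5 of them differed by 1 or more. The 10 H2A genes had a median of 0.27, the 4 H1 genes a median of 0.34 and the 2 H3 genes a median of 0.13. Genes within these types differed, from -0.26 to 1.31 in H2A and from -0.37 to 0.74 in H1. The H3 genes were H3f3b with -0.26 and Hist2h3c2 with 0.51, or 1.19 by its other probe. limma called 2 of the 34 genes and 0 with the replicate block, beside 185 and 61 higher of all 35581 names. The 2 were the H4 genes LOC679840 and Hist1h4m, of which Hist1h4m was chosen on this contrast. At an unadjusted p under 0.05, 18 of the 34 were higher in either fit. Nothing is read from the 18, since chosen genes were counted too and the share over all names was not computed. Among the 6 chosen genes, the probes of RGD1565073, RGD1562378 and Hist1h2bm share sequence with other histone probes, as given above, and the remaining histone probes were not compared with each other.

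**Figure D3:**
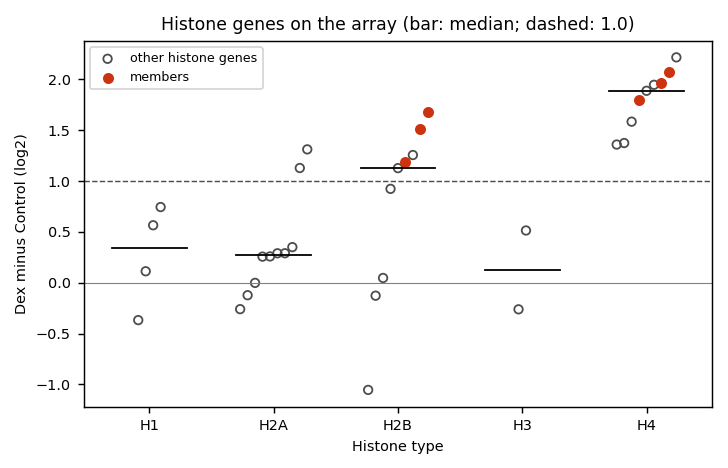
Mean Dex minus mean Control (y axis, log2) of 34 histone genes by histone type (x axis), with the 6 raised predicted names in red, other histone genes as open circles and a bar at each median. The H4 genes lie between 1.36 and 2.22, while the medians of H1, H2A and H3 lie between 0.13 and 0.34.

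The raised genes did not have the same profile over the Dex arrays. The median level of the 79 genes was 7.35, 7.33, 7.28 and 7.44 on Control arrays 1 to 4, against 9.04, 9.32, 8.55 and 8.51 on Dex arrays 1 to 4. Dex 2 was the highest Dex array for 43 genes and Dex 3 the lowest for 44. The mean of Dex 1 and 2 exceeded that of Dex 3 and 4 for 61 genes, by more than 1 for 12, while 5 genes were more than 0.5 higher on Dex 3 and 4. Dex 1 and Dex 2 were also the arrays with fewest probes above background, 26471 and 24908 against 33284 and 33402 on Dex 3 and 4, and the part of this in the profiles was not tested. The SD was larger in Dex for 50 of the 79 genes (63.3%), against 74.8% of all predicted names.

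**Figure D4:**
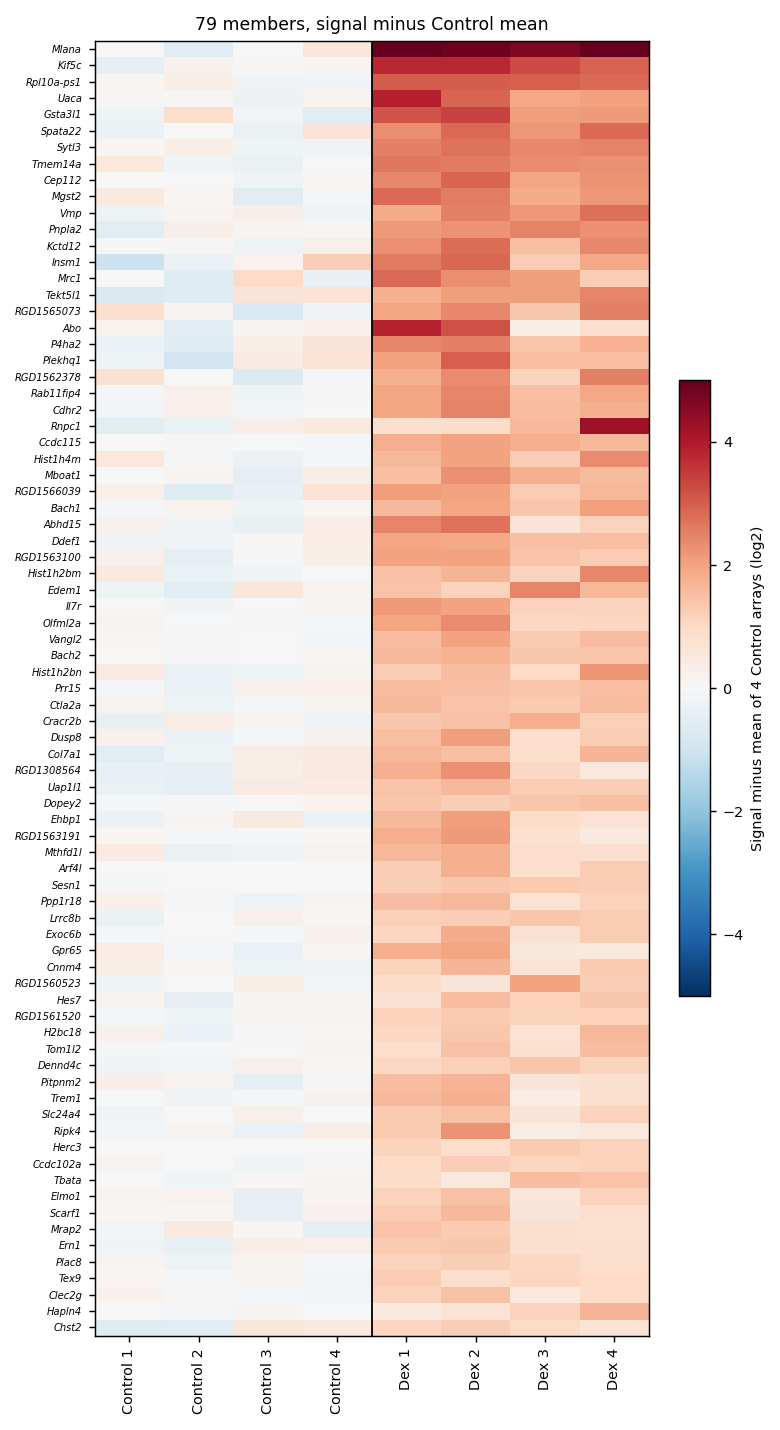
Signal of each of the 79 genes minus its Control mean (colour scale, log2) on the 4 Control and 4 Dex arrays, ordered by difference from 4.89 at the top to 1.00 at the bottom. Red runs through every Dex column, strongest on Dex 2 for 43 genes and weakest on Dex 3 for 44.

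The arrays lay on 3 slides, and only 1 of these held both groups, Control 1 with Dex 3. The other slides held Control 2, 3 and 4, and Dex 1, 2 and 4. That all 79 genes were higher on Dex 3 than on Control 1 was fixed by how they were chosen, so only the sizes are given. The median difference on this slide was 1.29 with a range of 0.13 to 4.65. A difference of 1 or more was kept by 51 of the 79 genes. Mlana had 4.65 on this slide, Kif5c 3.71, Pnpla2 3.03 and Edem1 2.70. None of the 6 histone genes reached 1, with a range of 0.41 to 0.70, while the other 73 genes had a median of 1.38. Abo had 0.13. Slide and treatment cannot be told apart for the other 6 arrays.

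**Figure D5:**
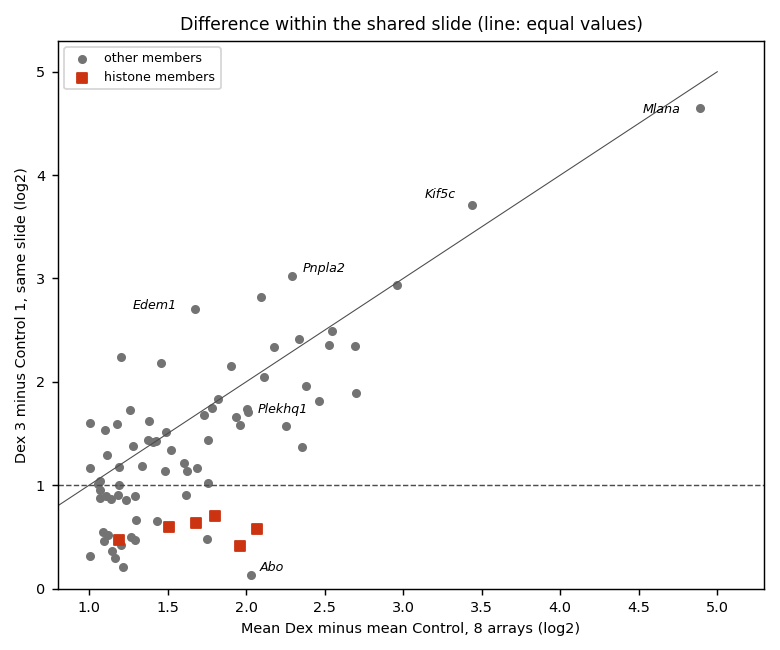
Difference between Dex 3 and Control 1, which shared a slide (y axis, log2), against mean Dex minus mean Control over all 8 arrays (x axis, log2) for the 79 genes, with histone genes as red squares, a line of equal values and a dashed line at 1. All points lie above 0, 51 at 1 or more, and the histone genes lie between 0.41 and 0.70.

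Some raised genes lay next to other raised names. Within 100 kb of the 79 genes lay 438 other positioned names, of which 39 met the same 3 conditions, or 8.90%, against 1.01% of all 34304 positioned names. Some neighbours are transcript fragments that may belong to the same gene, as the names TC552850 and TC553622 near Kif5c, so the count holds repeated readings. With a gene name there were 17 raised neighbours, near 16 of the 79 genes. Of the 17, 7 are themselves among the 79 and so met the conditions by the choice of genes, which leaves 10 others. Among these is Mat2a, which may be the same gene as RGD1560523. On chromosome 9, Gsta3l1 (chr9:19973338-19973397), Tmem14a (chr9:19996318-19996377) and Rpl10a-ps1 (chr9:20100505-20102685) lie around the glutathione transferase genes Gsta3, which differed by 3.77, and Yc2, which differed by 1.13. On chromosome 1, Pnpla2 and Cracr2b (chr1:201805921-201806191) lie 7.39 kb apart, while the neighbours Rplp2 and Taldo1 differed by 0.06 and -0.28. On chromosome 17, Hist1h4m, Hist1h2bn and Hist1h2bm lie within 100 kb, together with LOC680430 (1.95) and LOC680511 (1.31). Near Spata22 lies Aspa, an amidase of N-acetylaspartate, with 3.27, near Tom1l2 lies the lipid regulator Srebf1, with 3.34 by its brightest probe, and near Uap1l1 lies the peptidase gene Dpp7, with 1.06. Chromosome 10 held 11 of the 79 genes, chromosome 17 held 9, chromosome 4 held 8 and chromosome 1 held 7.

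A list of 60 glucocorticoid target genes known from lymphoid and other cells had 48 genes on the array. limma called 14 of them higher and 1 lower, Btg2 with -1.14, beside 185 higher and 80 lower of all 35581 names. With the replicate block it called 7 and 0, beside 61 and 6 of all names. The median difference was 0.49, against a median of -0.00 over all names. Of the 79 genes, 4 were on this list, namely Pnpla2, Il7r, Sesn1 and Gpr65, of which limma called Pnpla2, Il7r and Sesn1, and Pnpla2 alone with the replicate block.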

How the data were processed

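Total RNA of Control and Dex thymocytes was hybridized to 1-color Agilent arrays, 4 per group. The deposited scanner files hold the spot intensity and background flags of Agilent Feature Extraction 9.5.3.1. The deposited table holds log2 values that the authors quantile normalized and summarized per probe by median polish, and these values were used here without further scaling. Probe names, positions and background flags were read from the scanner files, and current symbols from the RefSeq tables. Every value column belonged to a sample (0 without). Differences of group means and limma tests (limma 3.58.1, R 4.3.3, two-sided, Benjamini-Hochberg adjustment over all 41012 non-control probes at 0.05) were computed for all probes; tables were made with Python 3.11.15 and pandas 2.3.3. The procedure was tested on simulated data.

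The members, the gene lists, the roles and the tests were chosen with earlier results of these data known. The genes given in every array are the 25 with the largest difference and a gene name other than an RGD, LOC or MGC number, and other members are given by role. All differences, SEs and calls come from the fit without a block unless the replicate block is named. Deviations from the group means correlated at 0.39, 0.13, 0.55 and 0.18 between Control and Dex arrays of like number in the labels, all above 0.1, and the block is given as an alternative on that ground. Some pairs of unlike number reached similar values, 0.39 for Control 1 and Dex 2, 0.19 for Control 2 and Dex 1, and 0.39 for Control 3 and Dex 4. Alternatives were 75th percentile scaling, normexp background correction with an offset of 50, a filter on dim probes, the mean over all probes of a name, the replicate block, the slide as a fixed or random block, the signal to noise statistic, and leaving out each array. Whether the arrays come from separate preparations is not given, so p-values measure the spread between these arrays, whose number limits the precision.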

Additional observations from a re-analysis of the deposited data

Results flagged for a closer look

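Of 158 groups of 4 arrays (each of the 79 genes in Control and in Dex), 4 held an array that stood apart from the other 3 by Dixon's ratio, the gap to the nearest array over the range of the group, at the 95% level. Chance gives about 1 in 20 groups. Hes7 on Control 2 had the highest ratio, 0.964, at a log2 signal of 11.57 against 12.11 to 12.13 on the other Control arrays. Elmo1 on Control 3 had 0.936, at 5.20 against 5.75 to 5.78. For Sesn1 on Control 1 the ratio was 0.837, at 11.20 against 11.26 to 11.28, and for Rpl10a-ps1 on Dex 4 it was 0.831, at 12.43 against 12.60 to 12.64.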

How the results depend on the processing

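The number of predicted names that met the 3 conditions, 79, was 38 with normexp background correction and between 69 and 83 with 75th percentile scaling, a dim filter, background on all 8 arrays or the mean over probes. Of the 79 genes themselves, 51 kept a difference of 1 or more on the shared slide. With dimmer probes of a name allowed, an alternative added after seeing the data, it was 98. Leaving out each array gave 80 to 115, the highest without Dex 3. Normexp lowered the median difference of the 79 genes to 0.98, and that of Kif5c from 3.44 to 1.46.

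limma called 49 predicted-name probes (and 13 lower) and 37 of the 79 genes. The corresponding counts were 30 and 22 with 75th percentile scaling, 97 and 51 with normexp, and 262 and 74 with the slide as a random block (estimated correlation within slides -0.24, 131 probes lower). The signal to noise statistic gave 348 and 73 at other thresholds, a p of 0.01, nominal in the methods of the study, and a fold change of 1.2. These last counts are therefore not comparable with those of limma. With the replicate block, which pairs the arrays by number, they were 17 and 15, and 14 of the 37 genes were among the 15, with Edem1 in addition. With the slide as a fixed block limma called 0 and 0 higher, and 1 probe lower. At an unadjusted p under 0.05, 192 of the 9148 probes were higher and 170 lower in that fit, and 41 of the 79 genes, chosen on the same contrast, were higher. The treatment there rests on Control 1 and Dex 3 alone. Leaving out each array gave 20 to 46 probes and 17 to 32 genes. The number of genes fell to 19, 20, 19 and 17 without Control 1 to 4, to 22 without Dex 1 and to 23 without Dex 4, and the number of probes also fell to 31 without Dex 2. No difference of the 79 genes turned its sign under these alternatives. With arrays left out, the dim filter, the replicate block or the slide as a fixed block, the sign was fixed by the choice of genes.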

Other observations

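A further 19 predicted names met the 3 conditions only with a probe that was not their brightest. Among them were Suv39h1, a histone methyltransferase of silent chromatin, with 1.78 by the dimmer probe and 0.08 by the brightest, Ctnnd1, the catenin p120 of cell junctions, with 1.48 and -0.29, the histone gene Hist2h3c2 with 1.19 and 0.51, and Sesn3, a relative of Sesn1, with 1.17 and 0.98. Over the 19 names the brightest probe differed by -0.29 to 0.98, with a median of 0.16. Within the 79 genes, 18 had more than 1 probe. Of their 25 other probes 21 differed by more than 0 and 12 met the conditions, with a median of 1.03.

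Markers of other cell types that a thymus preparation can hold were also read. limma called 0 of 6 B cell, 0 of 5 erythroid and 0 of 7 granulocyte and mast cell markers. Of these 0, 0 and 1 had an unadjusted p under 0.05, the last higher in Dex. The median differences were -0.11, 0.45 and 0.03, and 2, 5 and 4 markers differed by more than 0. Ebf1 of the B cell markers differed by -1.30, and Kit of the granulocyte and mast cell markers by 1.15. Their summed log2 levels were 9.12 to 9.62, 8.63 to 10.52 and 11.43 to 12.36 in Control and at most 9.37, 9.06 to 11.28 and 11.41 to 12.56 in Dex. Of the 16 double positive thymocyte markers limma called 0, 3 had an unadjusted p under 0.05, all lower in Dex, and the median difference was -0.17.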
